A study of Rattus norvegicus with 6 samples.

Results

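The interferon stimulated effector genes examined here were a set of 50 rat genes, found in the count tables by gene symbol. Of these, 47 were matched among the 15388 genes of the tables, 42 had enough reads to pass the filter on low counts, and 5 (Ifit1, Oas2, Oas3, Gbp4 and Zbp1) did not. The levels of Oas1b, Oas1i and Xaf1 were not analysed here. The list was selected on knowledge of earlier results of the comparison described here, so the differences between the groups are given as a description and are not independent evidence that interferon genes changed.

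Such genes encode the antiviral and immune proteins that cells make after type I or type II interferon has engaged its receptor. The receptor signals through Janus kinases to transcription factors that bind the interferon-stimulated response element (ISRE) or the GAS element in the promoters of these genes. Their products conjugate ISG15 to other proteins, sense or degrade foreign RNA, or block the entry and exit of viruses. In the thyroid they are best known from autoimmune disease and from interferon therapy.

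Thyroids were taken from adult Sprague-Dawley rats that were either not pregnant (NP, 3 samples) or in late pregnancy (LP, day 18, 3 samples), with the day of the vaginal plug as day 1. The labels name no transgene or drug for either group and no age beyond adult. Poly(A)+ RNA was sequenced, and between 2752144 and 3449857 reads were counted on genes in each sample. Levels are given as CPM, the reads of a gene brought to one common library size with TMM normalization, and 3 reads corresponded to 0.893 to 1.08 CPM. Within each group, replicates 2 and 3 agreed within sampling noise, with a chi-square per degree of freedom of 1.02 for NP and 0.995 for LP against 3.70 to 4.11 for pairs with replicate 1. Each such pair was averaged to 1 sample for means and SDs (n = 2), whereas the model took the 6 samples as deposited, and its standard errors and p-values measure only the spread between these samples, which may be technical.

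Before the values, the promoters of these genes were searched for the elements through which interferon acts. Promoter sequences were not used in choosing the genes. Known interferon targets were chosen, however, so a high share of matches follows from that choice and is not independent evidence. RefSeq promoters of the rat assembly GRCr8, from 250 bases before to 50 bases after the gene start, were at hand for 38 of the 50 genes, matched by symbol. The ISRE core, GAAANNGAA on either strand, was present for 28 of these 38 genes (73.7%), against 10.3% of the 27457 genes with such a promoter. With a further A required after the core, 26 of the 38 (68.4%) and 4.12% of all genes held it. The GAS core, TTCNNNGAA, which reads the same on both strands, was present for 12 of the 38 (31.6%), against 9.39% of all genes. ISRE matches overlapped each other in 5 genes (Bst2, Oas1a, Oas1b, Oas1i and Oas3), and in Bst2 an ISRE match also overlapped a GAS match. A match of these letters is a description and does not show that a factor was bound in the thyroid.

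Matches from genes of different roles follow with up to 20 bases on each side, 5′ to 3′ on the strand of the gene and cut at the gene start. Capitals mark the ISRE core, which appears as its reverse complement where it lies on the opposite strand.
Oas1a, chr12:41330411-41330459, + strand: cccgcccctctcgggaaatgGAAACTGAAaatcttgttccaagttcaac
Oasl2, chr12:47383307-47383355, - strand: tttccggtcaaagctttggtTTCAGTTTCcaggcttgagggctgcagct
Ifit3, chr1:241527263-241527311, + strand: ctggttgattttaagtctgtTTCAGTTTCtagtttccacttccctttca
Irgm, chr10:33742584-33742632, - strand: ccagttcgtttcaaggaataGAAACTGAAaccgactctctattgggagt
Bst2, chr16:18255064-18255112, - strand: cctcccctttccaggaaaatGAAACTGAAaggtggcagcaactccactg
Parp14, chr11:78408038-78408086, + strand: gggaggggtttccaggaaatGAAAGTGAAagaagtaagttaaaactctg
Ifi27, chr6:128355208-128355256, + strand: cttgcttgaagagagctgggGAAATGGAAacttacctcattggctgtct
Lgals3bp, chr10:104127870-104127918, - strand: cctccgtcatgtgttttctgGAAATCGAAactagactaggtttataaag
Gbp2, chr2:234005677-234005725, + strand: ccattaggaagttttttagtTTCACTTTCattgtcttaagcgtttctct

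Most matches lay close to the gene start. Of 38 matches in the 28 genes, 27 began within 100 bases before the start, 9 lay further upstream and 2 lay after it. Overlapping matches were counted separately, and positions in the promoters of other genes were not compared. The match of Oas1a shown above began 35 bases before the start, that of Irgm 34, that of Lgals3bp 50 and that of Oasl2 150 bases before it. Genes with and without a match were both found among those higher in LP, where 15.3% of all genes tested were called higher. The list was selected on this comparison, so the counts that follow are a description. Of the 23 genes with a match that could be compared between the groups, 17 were higher in LP with an adjusted p-value below 0.05, and their median log2 fold change was 0.70, while 7 of the 10 genes without a match were higher, with a median of 0.60. The order of the medians turned with the motif. For the ISRE core followed by A, 15 of 21 genes with a match were higher (median 0.59) and 9 of 12 without (median 0.77). For the GAS core, 8 of 11 with a match were higher (median 0.59) and 16 of 22 without (median 0.77).

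**Figure D1:**
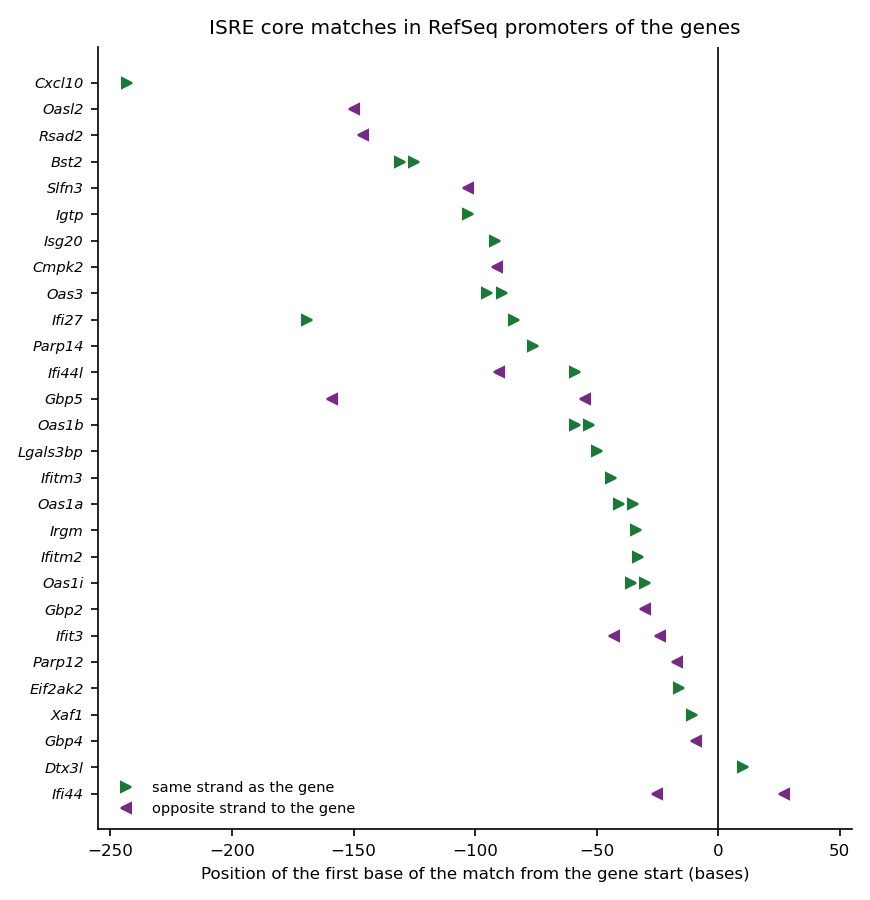
Positions of the ISRE core GAAANNGAA in the RefSeq promoters of the 28 genes that hold it (horizontal axis, bases from the gene start; 1 row per gene). Arrows mark the strand of the match, and 27 of the 38 matches begin within 100 bases before the start.

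In the thyroid, interferon stimulated genes were mostly higher in LP than in NP. In edgeR's quasi-likelihood fit across all 11738 genes tested, 30 of the 42 genes were higher in LP with an adjusted p-value below 0.05, where 15.3% of all genes tested were called higher. None of the 42 was lower, where 11.7% of all genes were called lower. The count of lower genes was also 0 at an unadjusted p-value below 0.05 and by DESeq2. By the study's criteria, which ask for more than a 2-fold change at an adjusted p-value below 0.05, 15 of the 42 were higher, beside 4.9% of all genes, and 0 were lower, beside 0.537%. Of these 15, Ifit3, Oasl and Cxcl10 passed the filter on low counts through their LP samples and fell short of it in NP. Their lowest NP counts were 6, 9 and 9 reads. Gbp5, which was not called, also passed the filter through LP. The median log2 fold change was 0.70 over the 42 genes and -0.0089 over all genes tested. These counts describe a list selected on the same comparison. Every LP sample lay above every NP sample in 29 of the 42 genes, against 21.2% of all genes tested. In whole tissue, a different number of cells of a type and a different amount of RNA per cell cannot be told apart.

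**Figure D2:**
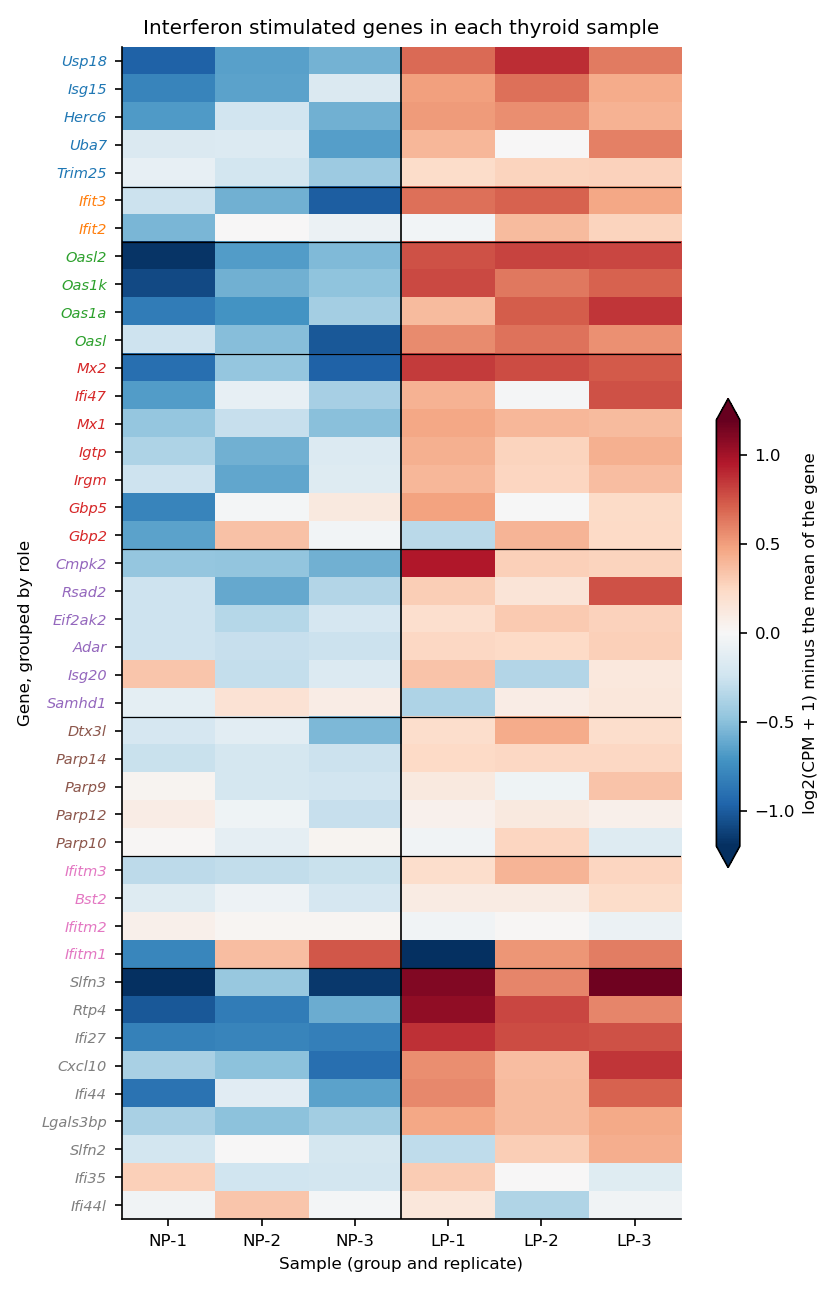
Level of the 42 interferon stimulated genes that passed the filter in each sample (columns), as log2(CPM + 1) minus the mean of the gene (colour), with genes grouped by role (rows, label colours). In 29 of the 42 genes every LP sample is above every NP sample, and Ifitm1 follows replicate 1 rather than the group.

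The ISG15 pathway attaches the ubiquitin-like protein ISG15 to other proteins. All 5 of its genes in the list were higher in LP, where 15.3% of all genes tested were called higher. Isg15 itself (ENSRNOT00000039263) had 17, 21 and 30 reads in NP replicates 1, 2 and 3 against 51, 62 and 53 in the LP replicates in the same order. This was 7.25 ± 1.6 CPM (SD, n = 2) in NP and 16.7 ± 0.54 CPM in LP (log2 fold change 1.13, with a standard error, SE, of 0.20 from the model). Usp18 (ENSRNOT00000056174), the protease that removes ISG15 and restrains the interferon receptor, had 23, 32 and 34 reads in NP against 87, 109 and 90 in LP. The lowest LP count of Usp18 lay far above its highest NP count (log2 fold change 1.53, SE 0.16). Uba7, the enzyme that activates ISG15, had 72, 79 and 55 reads in NP against 121, 99 and 151 in LP (log2 fold change 0.70, SE 0.16). Herc6, a ligase for ISG15 in rodents, had 16, 25 and 19 reads in NP against 45, 50 and 45 in LP. Its log2 fold change of 1.07 (SE 0.20) was the smallest of those past the study's criteria. Trim25, a ubiquitin ligase that acts on the RNA sensor RIG-I, had 133, 133 and 114 reads in NP against 186, 207 and 208 in LP (log2 fold change 0.51, SE 0.091). The groups did not overlap for any of the 5 genes, and every LP sample lay above every NP sample in 21.2% of all genes tested.

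The IFIT proteins bind viral RNA that lacks the cap modifications of the host. Ifit3 had 11, 9 and 6 reads in NP against 26, 29 and 24 in LP (log2 fold change 1.44, SE 0.29). Ifit2 had 21, 35 and 33 reads in NP against 35, 51 and 47 in LP, with a log2 fold change of 0.43 (SE 0.21), and it did not pass the threshold. Ifit1 stayed below the filter with 3, 2 and 0 reads in NP against 23, 9 and 15 in LP. Its LP libraries all lay above its NP libraries, a pattern seen in 21.2% of all genes tested. Without the filter LP exceeded NP by 2.99 on the log2 scale (SE 0.61), a value that rests on NP counts near the limit of the depth.

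The oligoadenylate synthetase family includes enzymes that detect double-stranded RNA and make the short oligoadenylates that switch on RNase L. The 4 genes of this family that could be compared were all higher in LP by more than 2-fold. By the study's criteria 4.9% of all genes tested were higher, and the list was selected on this comparison. Oasl2 (ENSRNOT00000001600) had 23, 37 and 41 reads in NP against 108, 120 and 119 in LP, which was 10.5 ± 3.2 CPM (SD, n = 2) against 35.1 ± 0.68 CPM. Its log2 fold change was 1.63 (SE 0.15). Oas1k had 16, 26 and 28 reads in NP against 74, 71 and 75 in LP (log2 fold change 1.5, SE 0.18). Oas1a, with an ISRE core near its start, gave a similar value. Its counts were 15, 18 and 23 in NP against 43, 60 and 66 in LP, with a log2 fold change of 1.44 (SE 0.21). Oasl had 16, 14 and 9 reads in NP against 34, 39 and 36 in LP (log2 fold change 1.32, SE 0.25). Oas1a and Oas1k are close copies in a gene cluster, and how the counting divided reads between such copies, or whether it used strand, is not given in the sources used here. The values of Mx1 and Mx2, the Ifitm genes and Ifi27, which also have close relatives, may be affected in the same way. Of those below the filter, Oas2 had 0, 1 and 4 reads in NP against 14, 10 and 15 in LP, whereas Oas3 had 2, 0 and 0 in NP against 0, 1 and 3 in LP and was near the limit of the depth in both groups.

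The interferon-induced GTPases fall into the Mx proteins, which trap viral nucleocapsids, and the GBP and IRG proteins, which act on the vacuoles of pathogens and are known above all as targets of type II interferon. Mx2 (ENSRNOT00000083067) had 79, 118 and 82 reads in NP against 303, 314 and 304 in LP, which was 30.6 ± 3.2 CPM (SD, n = 2) against 94.6 ± 3.6 CPM. Its log2 fold change was 1.57 (SE 0.10). Mx1 had 63, 79 and 67 reads in NP against 137, 141 and 139 in LP (log2 fold change 0.85, SE 0.11). The IRG proteins Igtp, Irgm and Ifi47 were higher by less than 2-fold, with log2 fold changes of 0.77, 0.70 and 0.85 and standard errors of 0.14, 0.13 and 0.23. Ifi47 had 20, 34 and 27 reads in NP against 51, 40 and 71 in LP, and without LP replicate 3 it was no longer called, at a log2 fold change of 0.62. The GBP proteins did not pass the threshold. Gbp2 had 23, 53 and 40 reads in NP against 33, 61 and 54 in LP, so that the groups overlapped and replicate 1 was the lowest in both. Gbp5 had 8, 17 and 19 reads in NP against 26, 19 and 23 in LP, with a log2 fold change of 0.48 (SE 0.30). Gbp4 was below the filter, with at most 8 reads in a sample.

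Among the enzymes that act on nucleic acids and nucleotides, 4 of the 6 that could be compared were higher in LP, where 15.3% of all genes tested were called higher. Cmpk2, a mitochondrial nucleotide kinase, had 36, 39 and 36 reads in NP against 113, 75 and 74 in LP (log2 fold change 1.09, SE 0.20). Rsad2 (viperin), which makes a chain-terminating nucleotide, lies next to Cmpk2 in mammals. It had 15, 12 and 15 reads in NP against 26, 25 and 40 in LP (log2 fold change 0.96, SE 0.27), just under the 2-fold cutoff. The log2 fold change of Rsad2 was 0.83 without NP replicate 2 and 0.72 without LP replicate 3, and in both cases the gene was no longer called. Adar, which converts adenosine to inosine in double-stranded RNA, had 200, 214 and 215 reads in NP against 316, 339 and 350 in LP. The 2 groups of Adar were 71.2 ± 0.80 CPM (SD, n = 2) and 102 ± 0.90 CPM, and the log2 fold change was 0.53 (SE 0.063). Eif2ak2 (PKR), the kinase that halts translation when it meets such RNA, had 101, 103 and 114 reads in NP against 156, 181 and 177 in LP. Its log2 fold change of 0.54 (SE 0.090) was close to that of Adar. The exonuclease Isg20 and the nucleotide phosphohydrolase Samhd1 did not pass the threshold, with log2 fold changes of 0.096 and -0.097 and standard errors of 0.25 and 0.22. The nucleic acid sensor Zbp1 had 1 read in each NP sample and 3, 4 and 3 in LP, below the filter.

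The PARP proteins of this list transfer ADP-ribose, and PARP9 works in a complex with the ubiquitin ligase DTX3L. Changes in this group were small, and 3 of its 5 genes were higher in LP, where 15.3% of all genes tested were called higher. Parp14 had 145, 164 and 159 reads in NP against 231, 251 and 250 in LP (log2 fold change 0.50, SE 0.070). Dtx3l had 89, 102 and 76 reads in NP against 133, 170 and 143 in LP (log2 fold change 0.59, SE 0.12). Parp9 had 198, 181 and 179 reads in NP against 235, 224 and 295 in LP (log2 fold change 0.28, SE 0.099). The call of Parp9 was lost without NP replicate 2 or 3 or LP replicate 1 or 3, with log2 fold changes of 0.23, 0.23, 0.29 and 0.17, at 0.26 with replicates 2 and 3 summed, at 0.21 with library totals and at 0.28 with DESeq2. Parp10 and Parp12 did not pass the threshold, with log2 fold changes of 0.055 and 0.16, and that of Parp10 turned to -0.017 when library totals replaced TMM.

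The membrane proteins that restrict viruses differed among themselves. Ifitm3, which blocks fusion of viruses in endosomes, had 267, 295 and 301 reads in NP against 432, 535 and 480 in LP (log2 fold change 0.59, SE 0.064). Bst2 (tetherin), which holds budding virus at the cell surface, had 228, 266 and 241 reads in NP against 306, 329 and 359 in LP (log2 fold change 0.29, SE 0.067), and it was not called by DESeq2, at 0.28. Ifitm2 had 216, 230 and 230 reads in NP against 225, 252 and 238 in LP. Scaled to the library size this was 76.6 ± 1.2 CPM (SD, n = 2) against 72.5 ± 0.58 CPM, and Ifitm2 was the 1 gene of the 42 whose LP samples all lay below its NP samples, although it did not pass the threshold (log2 fold change -0.069, SE 0.066). Ifitm1, described after its values were seen, had 22, 57 and 75 reads in NP against 14, 71 and 75 in LP. Its level followed replicate 1 in both groups, at 0.363 times the mean of replicates 2 and 3 in NP and 0.206 times in LP (log2 fold change between the groups -0.095, SE 0.38).

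Among genes that passed the filter, the remaining effectors included the 2 with the largest log2 fold changes, Slfn3 and Rtp4. Slfn3 (ENSRNOT00000078946), a Schlafen protein, had 11, 23 and 13 reads in NP against 76, 56 and 85 in LP (log2 fold change 2.05, SE 0.25). Rtp4, a receptor transporter protein with antiviral activity, had 11, 14 and 17 reads in NP against 62, 55 and 47 in LP (log2 fold change 1.81, SE 0.23). Both rested on few reads, and the deeper counts of Ifi27 gave a smaller standard error. Ifi27 (ENSRNOT00000012296), a small mitochondrial protein that is widely used as a marker of interferon exposure, had 445, 490 and 481 reads in NP against 1611, 1629 and 1600 in LP. The mean was 160 ± 0.15 CPM (SD, n = 2) in NP and 499 ± 25 CPM in LP (log2 fold change 1.62, SE 0.055). The secreted glycoprotein Lgals3bp had 1282, 1307 and 1369 reads in NP against 2597, 2642 and 2781 in LP, the most reads of any gene in the list. Its log2 fold change was 0.87 (SE 0.047), under the 2-fold cutoff.

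Cxcl10, the chemokine that draws activated T cells, had 13, 13 and 9 reads in NP against 31, 29 and 42 in LP (log2 fold change 1.38, SE 0.27). Ifi44 had 19, 37 and 25 reads in NP against 64, 60 and 76 in LP (log2 fold change 1.15, SE 0.20). In Cxcl10 and Ifi44 every LP sample lay above every NP sample, as in 21.2% of all genes tested. Ifi44l, a relative of Ifi44, had 10, 15 and 11 reads in NP against 13, 9 and 12 in LP (log2 fold change -0.23, SE 0.32). Ifi35 had 109, 82 and 83 reads in NP against 124, 108 and 97 in LP, and Slfn2 had 41, 53 and 45 in NP against 43, 72 and 80 in LP. Neither passed the threshold, at log2 fold changes of 0.11 and 0.34, and Slfn2 was called, at 0.52, without LP replicate 1.

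**Figure D3:**
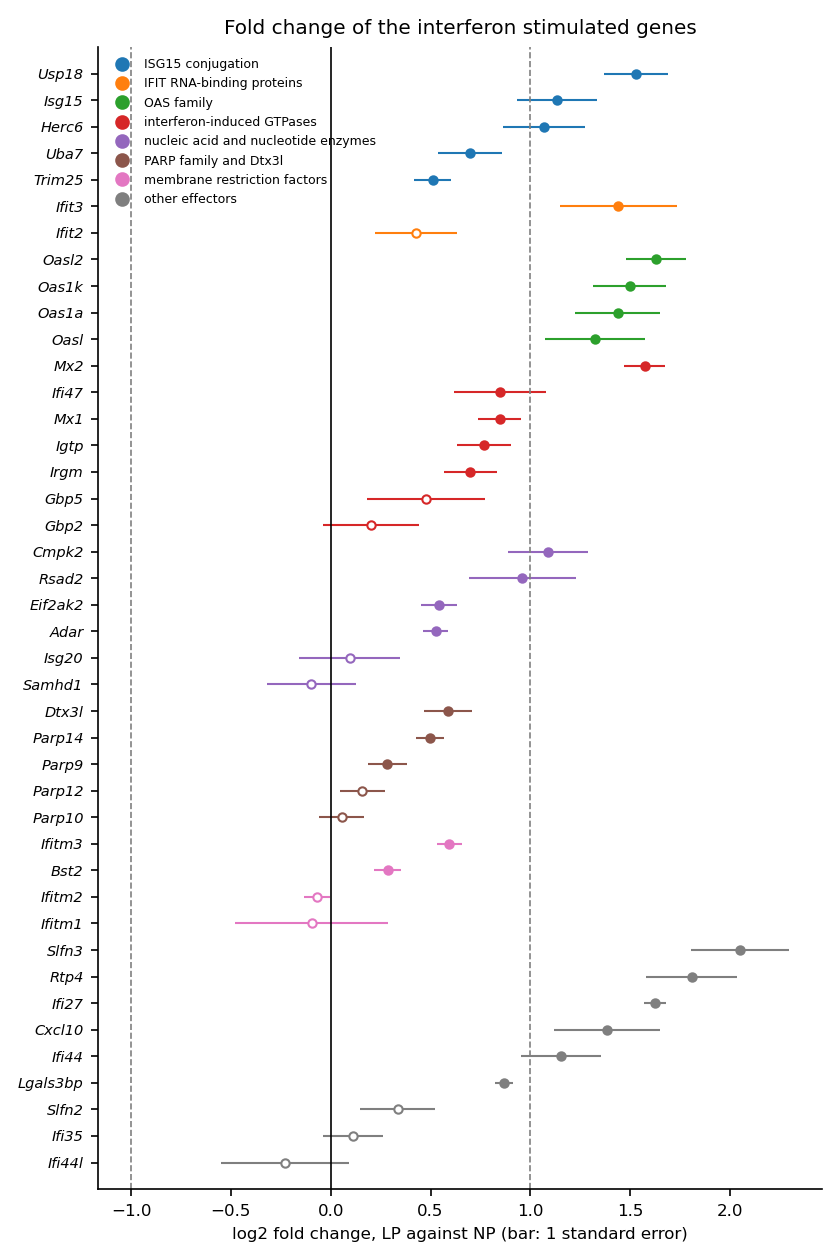
Log2 fold change of LP against NP for the 42 genes that passed the filter (points), with 1 SE of the edgeR model (bars), coloured by role; filled points have an adjusted p-value below 0.05 and dashed lines mark a 2-fold change. All 4 genes of the oligoadenylate synthetase family lie above 1.3, while the PARP genes with Dtx3l lie between 0.055 and 0.59.

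By role, the median log2 fold change was 1.47 for the oligoadenylate synthetase family, 1.15 for the remaining effectors and 1.07 for the ISG15 pathway. The median was 0.93 for the IFIT proteins and 0.77 for the GTPases. It was lower, at 0.53, for the nucleic acid enzymes, 0.28 for the PARP genes and Dtx3l and 0.11 for the membrane proteins. The separate ratios within replicate 1 and within replicates 2 and 3 of both groups were also taken, on log2(CPM + 0.5). In 35 of the 42 genes LP was above NP in both, and in 5 genes the direction differed. The same count was not made over all genes tested, and the list was selected on this comparison, so it is a description only. The median was 0.62 in replicate 1 and 0.70 in replicates 2 and 3. In the 15 genes past the study's criteria, the adjusted p-value stayed below 0.05 under every alternative in which they were tested. The fold change did not stay above 2 for 3 of them. The log2 fold change of Cmpk2 was 0.82 without LP replicate 1, that of Ifi44 was 0.99 without NP replicate 1, and that of Herc6 was 0.97 without NP replicate 1 and 0.997 with library totals, where 14 genes of the set passed the criteria.

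Genes upstream of this set were taken from a list of 40 interferon receptors, kinases, transcription factors and sensors, of which 32 were tested. With edgeR and Benjamini-Hochberg adjustment, 10 of the 32 were higher in LP and 2 were lower, beside the 15.3% and 11.7% of all genes given above. With the replicate number as a block, 4 were lower. Irf7, the transcription factor that amplifies the type I response, had 66, 44 and 65 reads in NP against 187, 198 and 201 in LP (log2 fold change 1.59, SE 0.13, adjusted p = 2.73e-08). Irf9, the DNA-binding partner of STAT2, had 63, 83 and 85 reads in NP against 171, 217 and 208 in LP (log2 fold change 1.22, SE 0.11, adjusted p = 1.04e-07). These 2 factors changed more than 2-fold. Stat2 had 472, 472 and 481 reads in NP against 519, 453 and 427 in LP, and the log2 fold change of -0.17 did not pass the threshold (SE 0.081, adjusted p = 0.13). Stat2 was called lower with the replicate block (adjusted p = 0.00668) and, at -0.30, without LP replicate 1 (adjusted p = 0.00154) or, at -0.25, with library totals (adjusted p = 0.0263), but not, at -0.14, with replicates 2 and 3 summed (adjusted p = 0.391).

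None of the receptor chains tested was called higher. For Ifnar1, a chain of the type I receptor, the log2 fold change was 0.14 (SE 0.084, adjusted p = 0.284), and for Ifnar2, the other chain, it was -0.044 (SE 0.16, adjusted p = 0.876). Ifngr1, a chain of the type II receptor, had 207, 211 and 237 reads in NP against 181, 193 and 219 in LP. It fell by 0.29 on the log2 scale (SE 0.077, adjusted p = 0.00874). Ifngr2, the other chain, had a log2 fold change of 0.29 in the opposite direction and was not called (SE 0.19, adjusted p = 0.294). The genes for interferon beta and interferon gamma were not analysed here. Irf8, a factor best known from myeloid cells, had 482, 460 and 461 reads in NP against 257, 293 and 267 in LP. It fell by 0.93 on the log2 scale (SE 0.068, adjusted p = 8.45e-09), the opposite direction to Irf7.

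Among the sensors, the RIG-I-like receptors Ddx58 and Dhx58 rose by 0.95 and 0.97 on the log2 scale (adjusted p = 0.00136 and 8.58e-06). Ddx58 had 19, 27 and 24 reads in NP against 43, 49 and 58 in LP. Dhx58 had 74, 63 and 65 reads in NP against 142, 162 and 135 in LP. Ifih1, also a RIG-I-like receptor, was not called, at 0.39 (SE 0.18, adjusted p = 0.136). The sensor Tlr3 was not called either, at 0.039 (SE 0.18, adjusted p = 0.903). The adaptor Mavs rose by 0.37 (adjusted p = 0.00524) and the kinase Jak2 by 0.50 (adjusted p = 9.8e-05). Nlrc5, the activator of MHC class I genes, had 10, 14 and 11 reads in NP against 31, 20 and 24 in LP (log2 fold change 0.94, SE 0.29, adjusted p = 0.0211). Its adjusted p-value was 0.0583 without NP replicate 1, 0.0747 without NP replicate 3 and 0.11 without LP replicate 1. Tmem173 (STING) and Traf3 had log2 fold changes of 0.58 and 0.43 (adjusted p = 0.0382 and 0.0102). The adjusted p-value of Tmem173 was between 0.0937 and 0.171 without NP replicate 2 or 3 or LP replicate 1 or 3, and that of Traf3 was 0.0561 without LP replicate 2. DESeq2 did not call Nlrc5, Tmem173, Traf3, Mavs or Ifngr1 (adjusted p = 0.174, 0.246, 0.131, 0.0949 and 0.124).

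**Figure D4:**
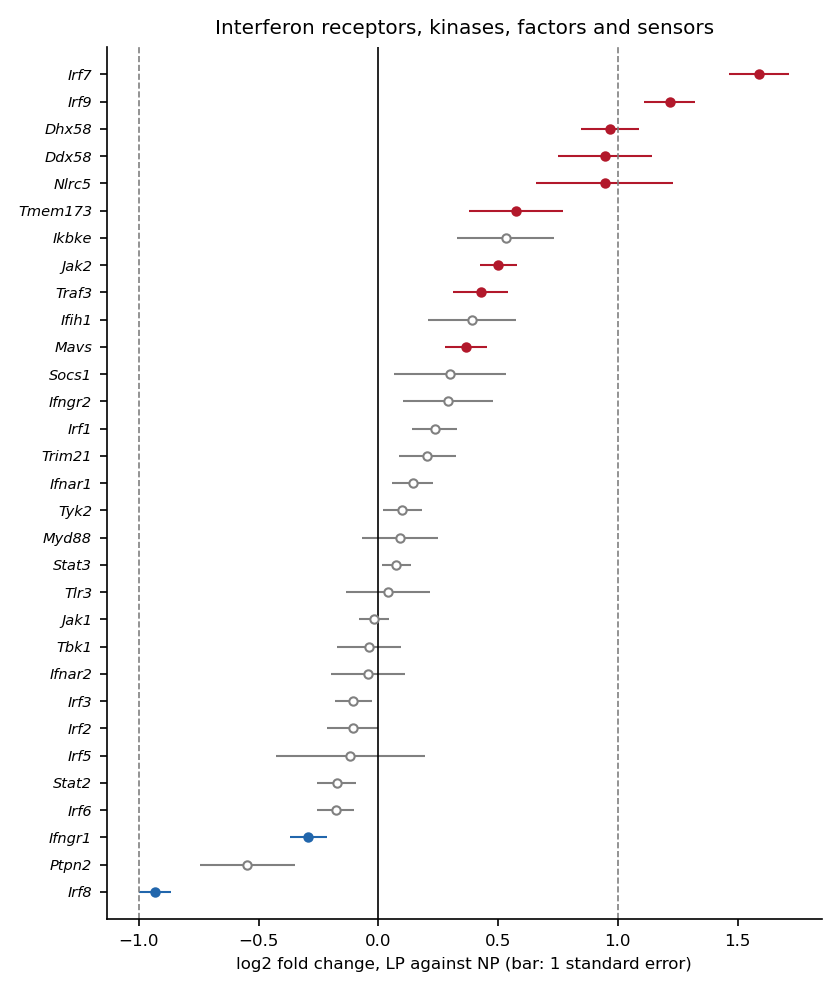
Log2 fold change of LP against NP for the tested interferon receptors, kinases, factors and sensors, 1 gene left out (points), with 1 SE (bars); filled points have an adjusted p-value below 0.05, red when higher and blue when lower in LP, and dashed lines mark a 2-fold change. Irf7 and Irf9 lie above 1, and Irf8 lies at -0.93.

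The samples were checked for other cell types whose share could move with the groups. The thyroid markers were present as labelled, with 674258 to 791841 reads of thyroglobulin (Tg) in each sample. The follicular cell list summed to 232336 to 250829 CPM in NP and 242604 to 259184 CPM in LP, with 3 of 11 tested genes higher and 3 lower. Leukocyte markers did not pass the threshold in edgeR in any direction for the pan-leukocyte (0 of 4 tested), macrophage (0 of 10), dendritic cell (0 of 1) and T and NK cell (0 of 2) lists. At an unadjusted p-value below 0.05 this was 0, 3, 0 and 0 genes, and DESeq2 called 0 in each. The summed level of the pan-leukocyte list was 71.7 to 84.5 CPM in NP and 68.1 to 75.7 CPM in LP, that of the macrophage list 175 to 199 and 190 to 214 CPM, that of the dendritic cell list 16.5 to 19.7 and 15.2 to 18.0 CPM, and that of the T and NK cell list 22.4 to 25.5 and 18.5 to 22.8 CPM. The B cell list, with none of its 5 genes past the filter, summed to at most 4.66 CPM.

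Other markers did move with the groups. The skeletal muscle list summed to between 24.0 and 74.6 CPM in NP and between 3997 and 4259 CPM in LP, with 8 of 9 tested genes higher, among them Tnnc2, which had 22, 14 and 26 reads in NP against 4554, 4532 and 4641 in LP. Endothelial markers were lower in 4 of 7 tested genes, with sums of 571 to 589 CPM in NP and 480 to 511 CPM in LP. The airway list was higher in both of its tested genes, with sums of 3.94 to 7.91 and 15.8 to 16.7 CPM. Parathyroid markers summed to 4474 to 4848 CPM in NP and 3730 to 4045 CPM in LP, with 1 of 3 lower, and C cell markers to 13986 to 14981 and 12385 to 13169 CPM, with 1 of 6 higher and 1 lower. The adipocyte list gave 40.5 to 51.6 and 47.9 to 50.3 CPM and the single thymocyte marker 8.22 to 13.6 and 13.4 to 15.5 CPM, none of them called. The part of these tissues in the level of the interferon stimulated genes was not tested. With the scaling computed without the muscle markers and the genes past the study's criteria, the median log2 fold change of the 42 genes was 0.72, with 30 higher.

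**Figure D5:**
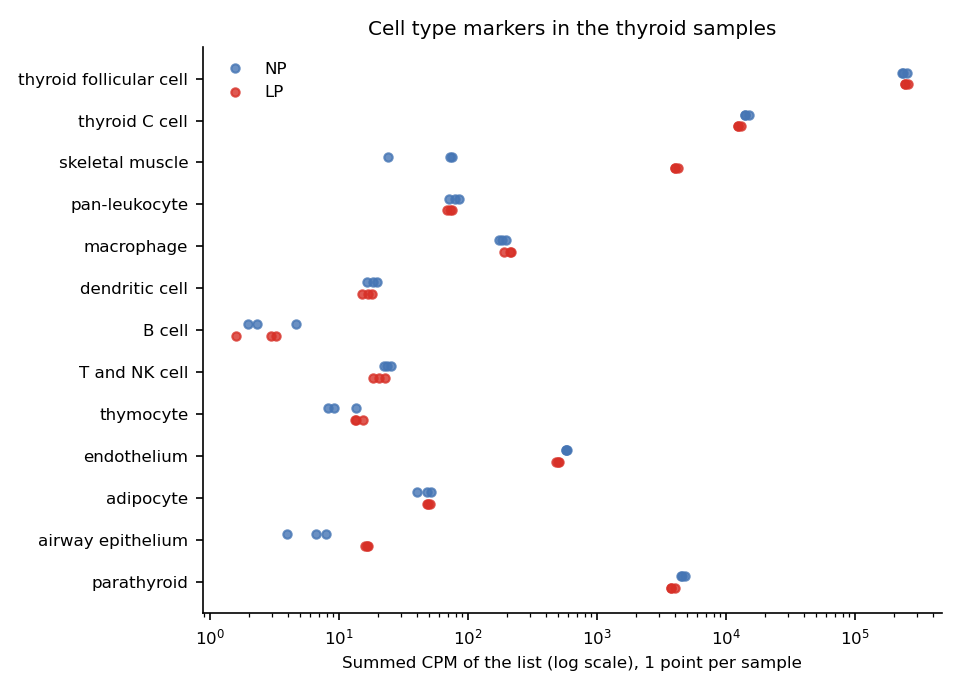
Summed CPM of each cell type marker list in each sample (points, log axis), NP in blue and LP in red. The skeletal muscle list lies at 24.0 to 74.6 CPM in NP and at 3997 to 4259 CPM in LP, while the pan-leukocyte list lies between 68.1 and 84.5 CPM in all 6 samples.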

How the data were processed

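Per the labels and the study's methods, the authors mapped reads to rn5 with TopHat 1.4.0 and counted them per Ensembl gene model with HTSeq. The deposited values are raw read counts, 1 table per sample. In R 4.3.3, counts were fitted by edgeR 4.0.16 (quasi-likelihood test, TMM, default filter on low counts, Benjamini-Hochberg adjustment over 11738 genes, 3 samples per group). Standard errors are the absolute log2 fold change over the square root of F. DESeq2 1.42.0 and other settings were alternatives. The steps were checked on simulated counts.

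The genes and lists were chosen with earlier results of these data known. Values in every sample are given for genes past the study's criteria and, within each role, for the 2 with the highest mean CPM and the 2 with the largest fold change, and other genes are given by range or count, or named after their values were seen. Of the 40 upstream genes, Stat2, Irf7, Irf9 and the 6 with the largest called change were fixed, and others were named later. Means take replicates 2 and 3 as 1 sample. The labels state no pairing, and the replicate numbers were taken to pair the samples only in the replicate block, not in the main fit. The deviations of same-numbered samples from their group means correlated across genes (0.493, 0.223 and 0.192). Those of NP replicate 2 with LP replicate 3 (0.216), and NP replicate 3 with LP replicate 2 (0.216), did so as well. The values therefore do not show how replicates 2 and 3 pair between the groups. Protein sequences were not used here. One upstream gene is counted in the totals but not reported here.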

Additional observations from a re-analysis of the deposited data

How the results depend on the processing

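Of the 30 genes of the set higher in LP, 26 kept their call under every alternative in which they were tested, and none of the 30 changed direction. Rsad2, Ifi47, Bst2 and Parp9 lost the call under at least 1 alternative, DESeq2 among them for all 4. The replicate block changed no call of the set and, of the upstream genes, added lower calls, 4 in place of 2. With a mean of at least 50 reads required, 24 genes of the set were tested, of which 18 were higher and 5 past the study's criteria. With each replicate left out, 27 to 32 were higher and 15 to 19 past the criteria. With replicates 2 and 3 summed, 31 of 44 were higher, 17 past the criteria. With library totals in place of TMM, 5 upstream genes and 2146 of all genes were lower, so that 40.5% of all called genes were higher in place of 56.6%, 29 genes of the set were higher, and Parp10 turned to -0.017. With DESeq2, 1185 of all genes were higher and 658 lower, and 6 upstream genes were higher and 1 lower, and the cause was not tested. Genes that did not pass the threshold changed direction with a replicate left out, over these ranges of log2 fold change. Gbp2 ranged from -0.027 to 0.47, Ifi35 ranged from -0.027 to 0.30, Ifitm1 ranged from -0.42 to 0.32, Ifnar2 ranged from -0.12 to 0.047, Isg20 ranged from -0.082 to 0.32, Parp10 ranged from -0.079 to 0.14 and Samhd1 ranged from -0.20 to 0.048. At this depth 18 of the 42 genes tested had a mean of fewer than 50 reads, and genes of the set below the filter could not be compared.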
